A study of Mus musculus with 12 samples.

Results

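The transcription factors described here are 9 genes that steer myeloid progenitors towards dendritic cells, monocytes or macrophages, namely Spi1, Zbtb46, Batf3, Id2, Klf4, Cebpa, Cebpb, Runx1 and Runx3. They were chosen by symbol from the 55335 genes listed in each library. Each symbol belonged to 1 gene, and all 9 passed the filter on low counts that left 14008 genes to be tested. RNA-seq was performed on bone marrow-derived dendritic cells (BMDCs), which form when mouse bone marrow is cultured with GM-CSF. All mice were C57BL/6 and carried the Rosa26-CreER transgene, a tamoxifen-activated Cre recombinase driven from a locus active in most cell types. WT cultures came from CreER littermates with intact Ctcf alleles, and KO cultures came from CreER;CTCF fl/fl mice, in which Cre removes loxP-flanked Ctcf, the gene of the chromatin insulator protein CTCF. The mice were 8 to 12 weeks old. Marrow was cultured for 6 days, 4-OH-tamoxifen was given at 0.5 µM on day 1, and floating cells were selected on CD11c. The methods can be read either way on whether WT cultures received 4-OH-tamoxifen too, and if they did not, genotype and drug cannot be told apart. WTL and KOL are WT and KO BMDCs stimulated for 3 h with 100 ng/ml lipopolysaccharide (LPS), a bacterial cell wall component, and WT and KO are the unstimulated cells. Each of the 4 groups held 3 libraries, which the study calls biological replicates. The labels do not tie them to separate animals, so the p-values measure the spread between these libraries.

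Spi1 encodes PU.1, the ETS factor that the whole myeloid lineage depends on, and it acts with Cebpa and Runx1, which are needed in progenitors. Zbtb46 marks classical dendritic cells and their committed precursors, Batf3 and Id2 are needed for the cross-presenting dendritic cell, and Runx3 restrains dendritic cell activation and supports Langerhans cells. Klf4 favours monocytes, and Cebpb is active in monocytes, macrophages and inflamed cells. Cells grown with GM-CSF carry features of both dendritic cells and macrophages, so that dendritic and macrophage regulators are found together in them.

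The genes lie on 6 chromosomes of the mm10 assembly, by the GENCODE M21 annotation. Zbtb46 is at chr2:181387762-181459426 on the minus strand, Batf3 at chr1:191097847-191108945 on the plus strand, Id2 at chr12:25093799-25097140 on the minus strand and Runx3 at chr4:135120652-135177990 on the plus strand. Klf4 is at chr4:55527143-55532466 on the minus strand and Cebpb at chr2:167688915-167690418 on the plus strand. Spi1 is at chr2:91082390-91115756 on the plus strand, Cebpa at chr7:35119293-35121928 on the plus strand and Runx1 at chr16:92601466-92826149 on the minus strand. Exons of Cebpb overlap those of Tmem189 on the opposite strand, exons of Cebpa those of the antisense gene Gm45091, and exons of Runx1 those of the antisense gene Gm26626. Whether RSEM was told the strand is not stated, so reads from the shared bases cannot be assigned with certainty. Gm45091 and Gm26626 had at most 5.6 and 3.2 normalized counts in any library, whereas Tmem189 averaged 1766 in WT, 1219 in WTL, 2806 in KO and 2865 in KOL. For Cebpb the uncertainty therefore concerns a gene with more counts than its own.

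RefSeq promoter windows were used to show the sequence upstream of factors whose levels moved with LPS or with CTCF depletion. Each window holds the 250 bases before a RefSeq start on GRCm38.p6, and 4 of the windows that overlap no exon of a protein-coding gene are printed in the orientation of the gene. Letters of motifs for factors of this set or their partners were searched on both strands: GAGGAA for the PU.1 core, then TGTGGT for RUNX proteins, then TGANTCA for AP-1 and BATF, then TTGCNNAA for C/EBP, then GGGNNNTCC for part of the NF-kB site. Of all 32851 windows, 23.3% held the PU.1 core, 14.0% the RUNX letters, 6.7% the AP-1 and BATF letters, 9.6% the C/EBP letters and 15.2% the NF-kB letters. CACCC, searched for KLF proteins, was in 52.0% of windows and is not capitalized here. Matches to the other motifs are in capitals, and positions count back from the start. The Zbtb46 window, chr2:181424389-181424638 on the minus strand, lies within an intron of longer Zbtb46 transcripts and holds an AP-1 and BATF match at position -61. Whether RNA starts at the end of this intronic window was not tested, so its letters cannot be taken as those of a promoter. The Runx3 window, chr4:135120395-135120644 on the plus strand, overlaps an exon of the non-coding gene Gm16225 and holds RUNX letters on the minus strand at positions -134 and -126. The Runx1 window, chr16:92697330-92697579 on the minus strand, holds the PU.1 core on the minus strand at position -46. The Cebpa window, chr7:35119043-35119292 on the plus strand, holds none of these letters other than those searched for KLF proteins, on the minus strand at position -242. The Klf4 and Cebpb windows also overlap no such exon but are not printed. The Klf4 window held none of the letters searched, and the Cebpb window held only CACCC. The matches in all windows are a description of the letters and not of binding.
Zbtb46: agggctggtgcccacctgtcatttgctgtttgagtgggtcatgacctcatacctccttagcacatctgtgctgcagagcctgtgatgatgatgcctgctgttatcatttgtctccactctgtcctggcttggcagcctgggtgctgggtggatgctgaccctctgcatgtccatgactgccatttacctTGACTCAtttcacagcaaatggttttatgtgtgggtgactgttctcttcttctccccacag
Runx3: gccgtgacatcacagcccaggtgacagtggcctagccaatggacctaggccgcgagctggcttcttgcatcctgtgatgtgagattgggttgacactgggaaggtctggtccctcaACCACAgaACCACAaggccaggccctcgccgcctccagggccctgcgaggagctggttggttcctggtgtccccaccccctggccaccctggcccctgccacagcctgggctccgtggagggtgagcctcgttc
Runx1: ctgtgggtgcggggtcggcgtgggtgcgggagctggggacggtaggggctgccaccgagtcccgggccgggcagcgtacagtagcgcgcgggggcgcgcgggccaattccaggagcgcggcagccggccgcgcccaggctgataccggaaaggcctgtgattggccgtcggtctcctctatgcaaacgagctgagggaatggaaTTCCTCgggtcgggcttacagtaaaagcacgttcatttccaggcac
Cebpa: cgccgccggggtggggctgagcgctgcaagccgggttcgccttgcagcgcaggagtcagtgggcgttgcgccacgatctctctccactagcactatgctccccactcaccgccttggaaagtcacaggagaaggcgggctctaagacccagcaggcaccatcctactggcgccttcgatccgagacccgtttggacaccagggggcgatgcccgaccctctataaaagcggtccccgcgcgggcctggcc

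The libraries held 12769773 to 16586334 expected counts. Ctcf itself was lower in each KO library than in each WT library and lower in each KOL library than in each WTL library. Its normalized counts (counts scaled to a common library size) were 1051, 987 and 975 in WT, 886, 817 and 745 in WTL, 570, 562 and 516 in KO and 563, 530 and 526 in KOL. Ctcf in KO stood at 54.7% of its WT level, and in KOL at 66.2% of its WTL level. Markers of the labelled cell type were present, with Itgax (CD11c) at a mean of 366 TPM (an abundance per transcript length) in WT, 224 in WTL, 606 in KO and 251 in KOL and H2-Aa at 3520, 3560, 1480 and 2650 TPM. Flt3, a receptor of conventional dendritic cells, averaged only 0.843 to 3.65 TPM over the groups. WTL replicate 2 had 5.17% of its counts in ribosomal RNA genes, against 0.383% to 1.18% in the other libraries. The Y-linked genes Ddx3y, Uty and Eif2s3y were at 0 in every library, although mice of both sexes are named in the methods.

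WTL replicate 1 stood apart from the other libraries in how counts depended on base composition. Relative to the group mean, the decile of genes with the highest GC content had a median log2 deviation of -0.19 in WTL replicate 1, against -0.08 to 0.11 in the other libraries. Within KOL it was 0.10 in replicate 1, -0.08 in replicate 2 and -0.02 in replicate 3. Over all genes, KOL replicate 2 differed more from the other KOL libraries (chi-square per degree of freedom of 27.2 and 28.5) than those did from each other (8.07). By this measure the WTL libraries differed still more. WTL replicate 2 stood at 77.7 and 72.5 from replicates 1 and 3, which stood at 28.3 from each other. It was left out only in the fits that dropped each library in turn. Several factors of this set are extreme in GC content. Cebpb transcripts were 67.15% GC, a higher share than in 99.8% of tested genes, and Klf4 (61.52%), Batf3 (61.24%), Cebpa (61.03%) and Runx3 (59.92%) all lay above 96.2% or more of them. A correction for GC content and leaving out WTL replicate 1 and KOL replicate 2 together were therefore added, both chosen after the data had been seen. For these 5 genes, each call that either of them changed is given also in that way, beside some that did not change.

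**Figure D1:**
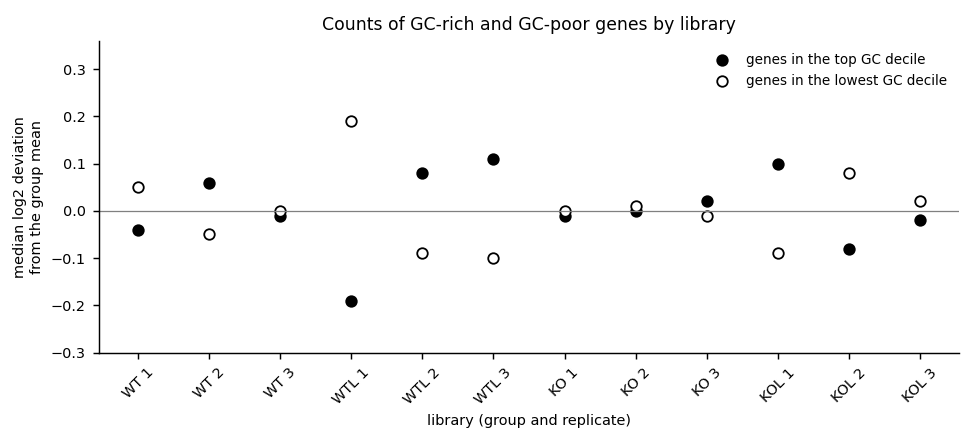
Median log2 deviation from the group mean (y axis) of genes above 100 normalized counts, for the decile with the highest GC content (filled) and the lowest (open), in each library (x axis). WTL replicate 1 sits at -0.19 and 0.19, whereas the other libraries lie between -0.10 and 0.11.

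Per length, Id2 and Spi1 were the most abundant of the factors. In WT BMDCs the mean level was 639 ± 24.5 TPM for Id2 (SD, n = 3) and 570 ± 8.97 for Spi1, followed by Batf3 at 55.9 ± 4.05, Cebpb at 39.5 ± 4.62, Cebpa at 37.9 ± 1.14, Runx1 at 23.4 ± 0.920, Klf4 at 21.7 ± 1.62, Zbtb46 at 15.5 ± 0.922 and Runx3 at 14.5 ± 1.56. The ranges of Cebpb and Cebpa, of Runx1 and Klf4 and of Zbtb46 and Runx3 overlapped, and those of the other neighbours in this order did not. In WTL the order was Id2 at 781 TPM, Spi1 at 403, Cebpb at 43.9, Batf3 at 31.5, Zbtb46 at 24.2, Runx3 at 10.1, Runx1 at 8.27, Cebpa at 8.16 and Klf4 at 5.93. Neighbours from Cebpb to Zbtb46 and from Runx3 to Klf4 overlapped in that group. In KO, Spi1 at 586 TPM stood just above Id2 at 565 without overlap, and Batf3 at 88.1 stood above Cebpb at 30.2, Runx1 at 23.2, Cebpa at 19.3, Klf4 at 14.6, Zbtb46 at 13.0 and Runx3 at 12.7, of which the last 3 overlapped as neighbours. In KOL, Cebpa was the lowest at 2.97 TPM, below Klf4 at 4.56 without overlap and Runx1 at 5.31, while Id2 was at 706, Spi1 at 300, Batf3 at 49.7, Cebpb at 39.6, Zbtb46 at 31.3 and Runx3 at 14.6. The dendritic regulator Zbtb46 was thus below Cebpa, Runx1 and Klf4 in unstimulated WT cells and above them in both stimulated groups.

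**Figure D2:**
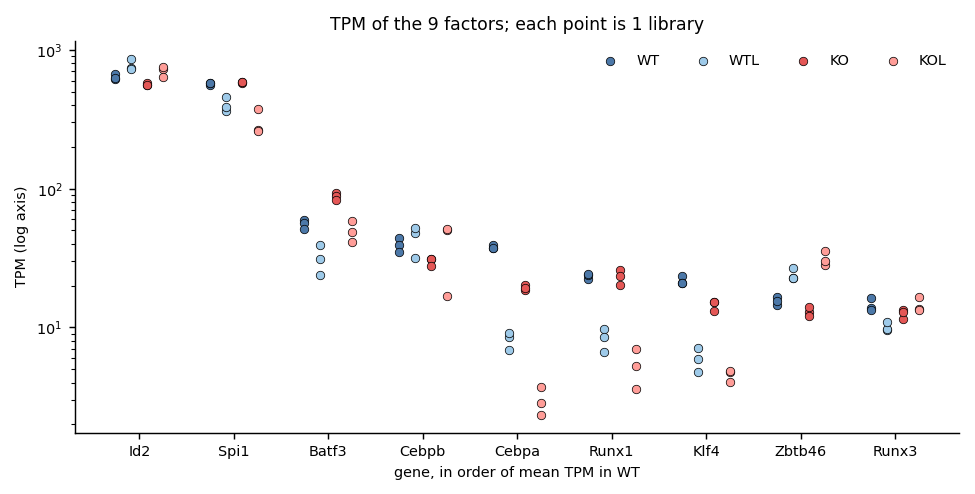
TPM of each factor (y axis, log scale) by gene, ordered by mean TPM in WT (x axis). Each point is 1 library, coloured by group, and Cebpa spans the widest range, from 39.2 TPM in a WT library to 2.35 TPM in a KOL library. Spi1 lies lower in WTL than in WT on this scale, a direction that the normalized counts do not share.

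TPM sums to the same total in every library, and the median gene was lower on that scale after LPS, by a log2 change of -0.45 for WTL against WT and -0.40 for KOL against KO, and by -0.11 for KO against WT. Changes were therefore taken from counts scaled by the TMM method, under which the median log2 change of all tested genes was between -0.03 and -0.01 in the comparisons of groups. Comparisons were tested in a single edgeR quasi-likelihood fit of all libraries, and an adjusted p is that of edgeR after Benjamini-Hochberg adjustment over 14008 genes unless another tool is named. A gene was called changed at an adjusted p under 0.05. Because the cells were measured in bulk, fewer cells expressing a factor and less of its RNA per cell cannot be told apart.

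The first question was how the factors responded to LPS in WT cells. Zbtb46 and Id2 rose, Cebpa, Klf4 and Runx1 fell, and Spi1, Batf3, Runx3 and Cebpb did not pass the test, so that 2 of 9 were called higher and 3 lower. Over all genes, 30.0% were called higher and 30.2% lower in WTL against WT, so the share of factors called is close to the background. In KO cells, 4 of 9 were called higher after LPS (Zbtb46, Id2, Runx3 and Cebpb) and 4 lower (Cebpa, Runx1, Klf4 and Spi1), against 33.6% and 33.9% of all genes in KOL against KO. The second question was what changed with CTCF depletion. In KO against WT, Batf3 was called higher and Cebpa and Klf4 lower, against 22.2% of all genes called higher and 22.4% lower. In KOL against WTL, Batf3, Runx3 and Zbtb46 were called higher and Cebpa, Runx1, Spi1 and Klf4 lower, against 21.4% and 23.3% of all genes. The last question was whether the LPS response itself differed between KO and WT cells, tested as an interaction. This difference was called higher for Zbtb46 and Runx3 and lower for Spi1, Cebpa and Runx1, that is, for 2 and 3 of 9, against 8.70% and 8.75% of all genes. The comparisons share groups, so that, for example, a high WTL value moves both WTL against WT and KOL against WTL.

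**Figure D3:**
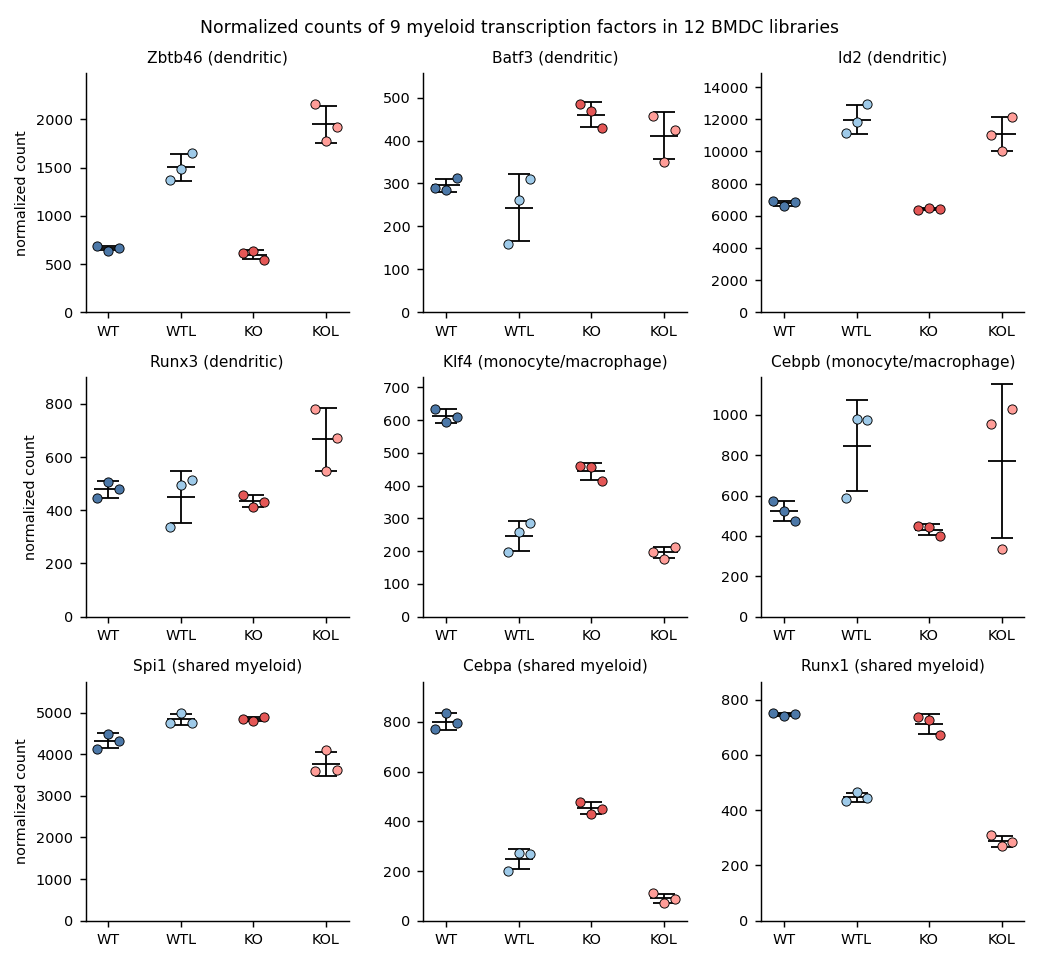
Normalized counts (y axis, from 0) of the 9 factors in each group (x axis). Points are libraries, and bars show the mean and SD of 3 libraries. Cebpa, Klf4 and Runx1 fall after LPS in both genotypes, Zbtb46 and Id2 rise in both, and Cebpb has 1 low library in each stimulated group.

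Among the dendritic regulators, Zbtb46, a zinc finger repressor of classical dendritic cells, rose after LPS and rose further in CTCF-deficient cells. Its normalized counts were 691, 641 and 669 in WT, 1370, 1488 and 1650 in WTL, 612, 638 and 544 in KO and 2156, 1778 and 1918 in KOL. All stimulated libraries lay above all unstimulated ones, and each KOL library lay above each WTL library. The log2 fold change after LPS was 1.17 ± 0.09 (SE; adjusted p = 7.18e-08) in WT and 1.71 ± 0.09 (adjusted p = 1.11e-09) in KO. The LPS response was larger in KO by 0.53 ± 0.13 on the log2 scale (adjusted p = 0.0127). Without LPS, KO and WT differed by -0.16 (95% confidence interval -0.34 to 0.03, adjusted p = 0.198), and with LPS, KOL exceeded WTL by 0.38 ± 0.09 (adjusted p = 0.00395). On the TPM scale the rise of Zbtb46 after LPS was smaller, 0.61 in WT and 1.20 in KO (limma, adjusted p = 0.000316 and 1.5e-06). With TPM scaled to a common median it was 1.05 and 1.60 (limma, adjusted p = 2.26e-06 and 6.1e-08).

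Id2, an inhibitor of E-protein transcription factors, rose after LPS in both genotypes. Its normalized counts were 6897, 6594 and 6837 in WT and 11132, 11836 and 12921 in WTL, and 6390, 6462 and 6412 in KO and 11025, 10026 and 12152 in KOL. The stimulated libraries of either genotype did not overlap the unstimulated ones, while WTL and KOL overlapped. The log2 fold change was 0.82 ± 0.08 (adjusted p = 4.69e-07) in WT and 0.79 ± 0.08 (adjusted p = 6.02e-07) in KO. The difference between these responses was -0.03 with a 95% confidence interval of -0.25 to 0.18 (adjusted p = 0.870). Neither KO against WT, at -0.08 (-0.23 to 0.07), nor KOL against WTL, at -0.11 (-0.26 to 0.04), passed the test. On the TPM scale the rise of Id2 after LPS was smaller, 0.28 in WT and 0.32 in KO (limma, adjusted p = 0.00956 and 0.00511). With TPM scaled to a common median it was 0.76 and 0.73 (limma, adjusted p = 5.42e-06 and 5.96e-06).

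Batf3, a basic leucine zipper factor that pairs with JUN proteins and IRF factors, was higher in CTCF-deficient cells with or without LPS. Normalized counts were 289, 285 and 312 in WT, 158, 262 and 310 in WTL, 484, 469 and 428 in KO and 458, 351 and 424 in KOL. Each KO library was above each WT library and each KOL library above each WTL library, whereas stimulated and unstimulated libraries of a genotype overlapped. KO exceeded WT by 0.64 ± 0.16 on the log2 scale (adjusted p = 0.00513), a 1.56-fold difference, and KOL exceeded WTL by 0.74 ± 0.17 (adjusted p = 0.00271), a 1.67-fold difference. The lowest Batf3 count was that of WTL replicate 1, the library lowest in GC-rich genes. Without WTL replicate 1 and KOL replicate 2, KOL exceeded WTL by 0.62 and KO exceeded WT by 0.64 on the log2 scale, and with the GC correction the differences were 0.62 and 0.52, all still called. After LPS, Batf3 changed by -0.26 (-0.60 to 0.07, adjusted p = 0.199) in WT and by -0.16 (-0.48 to 0.15, adjusted p = 0.385) in KO. The change in WT was -0.04 without those 2 libraries, and it was called lower, at -0.48, without WTL replicate 3 (adjusted p = 0.0282). On the TPM scale Batf3 was called lower after LPS in both genotypes, by -0.84 in WT and -0.83 in KO (limma, adjusted p = 0.000956 and 0.00101). After scaling TPM to a common median these values were -0.38 and -0.42, of which that in KO was called (limma, adjusted p = 0.0693 and 0.0391).

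Runx3, a RUNX factor that limits dendritic cell maturation, rose after LPS in KO cells. Normalized counts were 446, 507 and 481 in WT, 336, 495 and 515 in WTL, 459, 413 and 432 in KO and 782, 546 and 671 in KOL. The KOL libraries lay above all other libraries, and the remaining 3 groups overlapped each other. KOL exceeded KO by 0.62 ± 0.14 (adjusted p = 0.00161) and exceeded WTL by 0.56 ± 0.14 (adjusted p = 0.00566) on the log2 scale, or 1.53-fold and 1.48-fold. In WT, LPS changed Runx3 by -0.09 (-0.37 to 0.20, adjusted p = 0.632), and this value was 0.08 without WTL replicate 1. KO and WT differed by -0.14 (-0.42 to 0.14, adjusted p = 0.470), which was called with the GC correction, at -0.25 (adjusted p = 0.0297). The responses of KO and WT differed by 0.70 ± 0.20 (adjusted p = 0.0295), which was 0.66 without WTL replicate 1 and KOL replicate 2 (adjusted p = 0.000148) and 0.69 with the GC correction (adjusted p = 0.00126). The adjusted p of this difference was above 0.05 when any 1 of 6 other libraries was left out, reaching 0.0784 without KOL replicate 1. On the TPM scale with no further scaling, KOL exceeded KO by 0.19 and was not called (limma, adjusted p = 0.153), while WTL was called lower than WT, by -0.48 (limma, adjusted p = 0.00243). With TPM scaled to a common median the values were 0.57 (limma, adjusted p = 0.000559) and -0.04 (limma, adjusted p = 0.765).

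**Figure D4:**
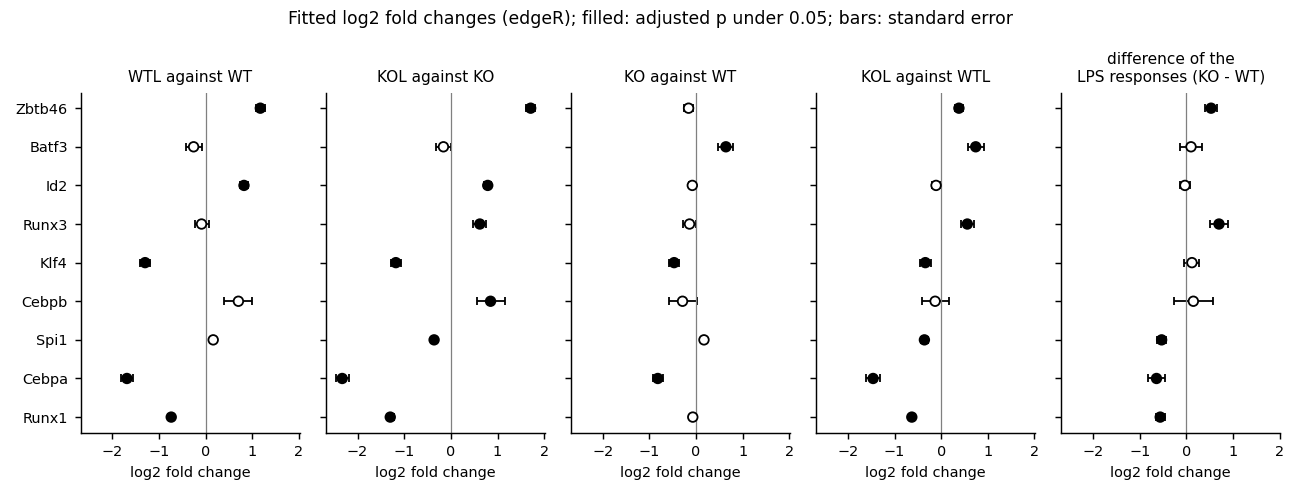
Fitted log2 fold changes (x axis) of the 9 factors (y axis) in the 4 comparisons of groups and, at the right, the difference between the LPS responses of KO and WT. Bars are standard errors and filled points have an adjusted p under 0.05. Cebpa reaches -2.33 in KOL against KO and Zbtb46 reaches 1.71. Spi1 in WTL against WT, at 0.16 and not called, turns negative on the TPM scale.

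Of the monocyte and macrophage regulators, Klf4, a zinc finger factor needed for monocyte development, fell after LPS in both genotypes and was lower in KO than in WT. Its normalized counts were 635, 594 and 608 in WT, 197, 258 and 286 in WTL, 459, 456 and 414 in KO and 198, 177 and 212 in KOL. All stimulated libraries lay below all unstimulated ones, all KO libraries below all WT libraries, and WTL and KOL overlapped. The log2 fold change after LPS was -1.30 ± 0.11 (adjusted p = 1.28e-07) in WT, to 40.3% of the WT mean, and -1.18 ± 0.11 (adjusted p = 4.51e-07) in KO, to 44.2% of the KO mean. KO was lower than WT by -0.47 ± 0.10 (adjusted p = 0.00200). The difference of -0.34 ± 0.12 between KOL and WTL was called (adjusted p = 0.0319), but its adjusted p was 0.164 in a fit of those 6 libraries alone and 0.0513 with the replicate number as a block, and the call was lost when any 1 of 7 libraries was left out (up to 0.160). It was called with the GC correction, at -0.47 (adjusted p = 0.00129), and without WTL replicate 1 and KOL replicate 2 together, at -0.41 (adjusted p = 0.00188).

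Cebpb, a leucine zipper factor induced in inflammatory macrophages, varied most between the libraries of KOL. Normalized counts were 574, 525 and 476 in WT, 588, 980 and 974 in WTL, 450, 444 and 398 in KO and 953, 333 and 1031 in KOL. The low stimulated values, 588 and 333, were those of WTL replicate 1 and KOL replicate 2, the libraries with the lowest values of GC-rich genes in their groups, and the part of base composition in them was not tested. Cebpb rose after LPS in KO by 0.85 ± 0.30 on the log2 scale (adjusted p = 0.0220), although the range of KOL included that of KO. In WT the change of 0.70 ± 0.30 was not called (adjusted p = 0.0550), and the libraries of WTL and WT did not overlap. Leaving out WTL replicate 1 and KOL replicate 2 removes these low values, so that larger changes and a smaller spread follow from that choice. The changes were then 0.90 in WT and 1.20 in KO. Without KOL replicate 1, KOL replicate 3, KO replicate 2 or KO replicate 3 the change in KO was no longer called. Nor was it called on the TPM scale, at 0.23 (limma, adjusted p = 0.581), or with TPM scaled to a common median, at 0.62 (limma, adjusted p = 0.145). With the GC correction the change was 0.72 in WT (adjusted p = 0.0250) and 0.85 in KO (adjusted p = 0.00985). KOL and WTL differed by -0.13 (-0.71 to 0.44, adjusted p = 0.741), which turned to 0.22 without KOL replicate 2. KO and WT differed by -0.29 (-0.88 to 0.30, adjusted p = 0.474), and the LPS responses by 0.15 (-0.67 to 0.97, adjusted p = 0.850). Without WTL replicate 1 and KOL replicate 2 together these values were -0.29 and 0.31, both called (adjusted p = 0.00224 and 0.0343).

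Among the shared myeloid regulators, Cebpa, the C/EBP factor that carries progenitors into the granulocyte and monocyte lineages, had the largest log2 change of the 9 in each of the 4 comparisons of groups. Normalized counts were 769, 836 and 794 in WT, 200, 271 and 269 in WTL, 479, 430 and 449 in KO and 110, 71.4 and 88.6 in KOL. The 4 groups did not overlap, in the order WT, KO, WTL and KOL from high to low. The log2 fold change after LPS was -1.69 ± 0.12 (adjusted p = 1.74e-08) in WT and -2.33 ± 0.14 (adjusted p = 2.15e-09) in KO. CTCF-deficient cells were lower by -0.82 ± 0.11 without LPS (adjusted p = 3.11e-05) and by -1.46 ± 0.15 with LPS (adjusted p = 1.69e-06), or 56.6% and 36.5% of the WT and WTL means. The responses differed by -0.64 ± 0.18 (adjusted p = 0.0284), and this call was lost with the replicate number as a block (adjusted p = 0.0547), when any 1 of 8 libraries was left out (adjusted p up to 0.101), and on the TPM scale, where the difference was -0.27 (limma, adjusted p = 0.376). It was called with the GC correction, at -0.65 (adjusted p = 0.00139), and without WTL replicate 1 and KOL replicate 2 together, at -0.62 (adjusted p = 0.00148).

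Runx1, the RUNX factor needed for the first blood stem cells, fell after LPS and fell further in KO. Normalized counts were 752, 741 and 748 in WT, 432, 464 and 443 in WTL, 738, 725 and 671 in KO and 309, 270 and 285 in KOL. Each KOL library was below each WTL library, and both groups were below all unstimulated libraries. The log2 fold change after LPS was -0.74 ± 0.07 (adjusted p = 3.82e-07) in WT and -1.30 ± 0.07 (adjusted p = 1.01e-09) in KO, and these differed by -0.56 ± 0.10 (adjusted p = 0.00155). KO and WT differed by -0.07 (-0.20 to 0.06, adjusted p = 0.419), and KOL was below WTL by -0.63 ± 0.07 (adjusted p = 8.08e-06). The transcript length that RSEM assigned to Runx1, weighted by the abundance of its transcripts, varied from 2693 bases in KOL replicate 2 to 5330 bases in KOL replicate 3, so that its TPM varied more within a group than its counts. On the TPM scale the difference between the responses was also -0.56 but was not called (limma, adjusted p = 0.210).

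Spi1, the gene of PU.1, had the smallest spread over the 12 libraries, with a root mean square deviation of 0.16 on the log2 scale. Its normalized counts were 4135, 4496 and 4326 in WT, 4750, 4994 and 4757 in WTL, 4850, 4808 and 4894 in KO and 3588, 4110 and 3618 in KOL. All KOL libraries lay below all others. The log2 fold change after LPS was 0.16 ± 0.07 in WT (adjusted p = 0.0515) and -0.36 ± 0.07 in KO (adjusted p = 0.000286), and these responses differed by -0.53 ± 0.10 (adjusted p = 0.00192). KOL was below WTL by -0.36 ± 0.07 (adjusted p = 0.000642), or 78% of the WTL mean, and KO against WT, at 0.17 ± 0.07, was not called (adjusted p = 0.0583). DESeq2 called both of the values just above the threshold, with an adjusted p of 0.0191 for WTL against WT and 0.0345 for KO against WT. The small change in WT depended on scaling, since it was -0.51 on the TPM scale and -0.03 after the TPM libraries were brought to a common median. The difference between the responses was -0.48 and -0.54 on those scales and was called on neither (limma, adjusted p = 0.112 and 0.0730).

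Ratios of TPM between a dendritic and a macrophage or shared regulator, for pairs chosen after the values had been seen, do not depend on the scaling of libraries. They do depend on the transcript length that RSEM assigned, which for Runx1 ran from 2693 to 5330 bases within KOL. They are also not corrected for GC content. The ratio of Zbtb46 to Klf4 was 0.716 ± 0.0239 in WT, 4.14 ± 0.550 in WTL, 0.891 ± 0.0373 in KO and 6.89 ± 0.594 in KOL (SD, n = 3). None of the groups overlapped, with 0.743 as the highest WT value and 3.77 as the lowest WTL value. The ratio of Batf3 to Klf4 was 2.58 ± 0.128 in WT, 5.26 ± 0.311 in WTL, 6.05 ± 0.219 in KO and 10.9 ± 1.31 in KOL. Runx3 to Runx1 was 0.619 ± 0.0627 in WT, 1.27 ± 0.353 in WTL, 0.549 ± 0.0288 in KO and 2.95 ± 0.923 in KOL. Between the C/EBP factors, the ratio of Cebpb to Cebpa was 1.04 ± 0.128 in WT, 5.33 ± 0.623 in WTL, 1.57 ± 0.116 in KO and 12.9 ± 5.46 in KOL, where KOL replicate 2 had 7.19 and the other KOL libraries 13.6 and 18.1.

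A list of 14 other dendritic regulators was examined beside these factors, all of which were tested. This list and those below were chosen with earlier results of these data known, so their counts are a description and not a test. After LPS, 13 rose and none fell in WT, with a median log2 change of 1.07, and 12 rose and none fell in KO, with a median of 0.81. The median of all genes was -0.02 in both comparisons. Of all genes, 30.0% were called higher and 30.2% lower in WT, and 33.6% and 33.9% in KO. The E protein Tcf4, which drives plasmacytoid dendritic cells, rose from a mean normalized count of 338 to 1920 in WT (log2 2.51 ± 0.08, adjusted p = 6.04e-12). Irf4, which supports type 2 dendritic cells, rose from 1196 to 4989 in WT (2.06 ± 0.08, adjusted p = 4.59e-11) and from 1168 to 7894 in KO (2.76 ± 0.09, adjusted p = 2.25e-12). Nr4a3, an orphan nuclear receptor linked to dendritic cell migration, and Mycl, the MYC relative used by dendritic cells, rose by 2.26 ± 0.07 (adjusted p = 1.51e-12) and 2.19 ± 0.14 (adjusted p = 8.62e-09) in WT.

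CTCF depletion moved the same list in both directions. In KO against WT 3 were higher and 6 lower, and in KOL against WTL 3 were higher and 7 lower, with medians of -0.10 and -0.33 against -0.01 and -0.03 for all genes. Of all genes, 22.2% were called higher and 22.4% lower in KO against WT, and 21.4% and 23.3% in KOL against WTL. Irf8, the partner of PU.1 and BATF3 in type 1 dendritic cells, averaged 1575 in WT, 4408 in WTL, 1423 in KO and 2070 in KOL, and its LPS response was smaller in KO by -0.94 ± 0.15 (adjusted p = 0.000748). Nfil3, which acts early in dendritic cell development, averaged 291, 244, 225 and 520 in the same order, and its response was larger in KO by 1.45 ± 0.17 (adjusted p = 5.77e-05). The response of Ikzf1, the Ikaros factor, was smaller in KO by -1.16 ± 0.10 (adjusted p = 6.04e-06). Bcl6, a repressor needed by several dendritic cell subsets, was lower in KO than in WT by -1.04 ± 0.07 (adjusted p = 4.46e-08).

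The 12 other macrophage regulators did not move one way. After LPS 6 rose and 4 fell in WT, and 7 rose and 4 fell in KO, with medians of 0.10 and 0.46. Of all genes, 30.0% rose and 30.2% fell in WT, and 33.6% and 33.9% in KO. Maf, a leucine zipper factor of macrophages, rose from 82.8 to 384 normalized counts in WT (2.21 ± 0.15, adjusted p = 1.16e-08). Egr2 fell by -1.04 ± 0.09 in WT (adjusted p = 3.03e-07). In KO against WT 4 were higher and 5 lower, and in KOL against WTL 1 was higher and 4 lower, with medians of -0.08 and -0.12. The shares of all genes were 22.2% and 22.4% in KO against WT and 21.4% and 23.3% in KOL against WTL. Pparg, the lipid-sensing nuclear receptor of alveolar macrophages, averaged 201 in WT and 74.3 in KO (-1.44 ± 0.19, adjusted p = 2.65e-05), and Bhlhe41 fell by -1.22 ± 0.10 (adjusted p = 2.71e-07).

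**Figure D5:**
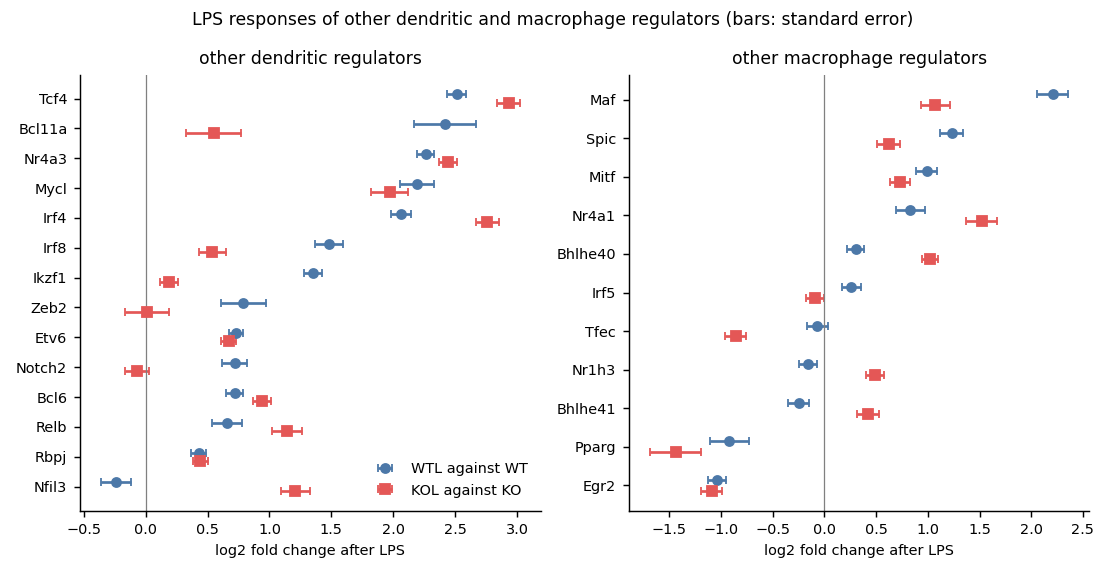
Log2 fold changes after LPS (x axis) in WT (circles) and KO (squares) for 14 other dendritic regulators (left) and the other macrophage regulators (right, with 1 of the 12 not shown), with standard errors as bars. In WT 13 of the dendritic regulators were called higher, against 30.0% of all genes, on a list chosen with earlier results of these data known. The macrophage regulators shown run from -1.04 for Egr2 to 2.21 for Maf.

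Relatives and partners of the factors were taken family by family. For comparison, 30.0% of all genes rose and 30.2% fell after LPS in WT, and 33.6% and 33.9% in KO. Of 7 BATF, AP-1 and IRF relatives and partners of Batf3, 6 rose after LPS in each genotype and none fell. Jun was not called in WT (0.10, adjusted p = 0.305), and Jund was not called in KO (-0.33, adjusted p = 0.11). Irf4 and Irf8 were also on the list of other dendritic regulators. Batf rose from 225 to 1009 in WT (2.16 ± 0.08, adjusted p = 1.89e-11), and Batf2 from 36.5 to 478 (3.71 ± 0.13, adjusted p = 7.30e-12). Batf3 itself did not pass the test in either genotype. Of 5 ID and E proteins, Id3 fell in WT (-2.04 ± 0.11, adjusted p = 1.02e-09) from 342 to 82.5, where Id2 rose. Of 5 KLF factors, 2 rose and 2 fell in WT, with Klf6 up by 1.24 ± 0.07 (adjusted p = 2.35e-09) and Klf10 down by -0.99 ± 0.08 (adjusted p = 4.12e-08). Of 7 ETS factors, 5 rose and 2 fell in WT, with Fli1 down by -1.44 ± 0.09 (adjusted p = 7.44e-09).

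Of the C/EBP family, 4 of 5 listed genes were tested and 1 rose and 2 fell after LPS in WT, against 30.0% and 30.2% of all genes. Cebpe, a factor of granulocyte maturation, averaged 25.4 in WT, 22.9 in WTL, 136 in KO and 264 in KOL. It was higher in KO than in WT by 2.42 ± 0.18 (adjusted p = 9.54e-08) and in KOL than in WTL by 3.49 ± 0.19 (adjusted p = 3.43e-09), the opposite direction to Cebpa. Of 4 genes of the RUNX family and its partners, 3 were tested. Runx2 was lower in KO than in WT by -0.82 ± 0.07 (adjusted p = 2.51e-07), and Cbfb, the shared binding partner of RUNX proteins, rose after LPS in WT by 0.19 ± 0.06 (adjusted p = 0.0159).

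Markers of other cells and states moved with the groups. For the counts below, 22.2% of all genes were called higher and 22.4% lower in KO against WT. The summed level of 13 dendritic cell markers was 13100 to 13800 TPM in WT, 12800 to 17600 in WTL, 8400 to 8760 in KO and 12700 to 18000 in KOL, and in KO against WT 2 were called higher and 7 lower. For 13 monocyte and macrophage markers the sums were 26000 to 28000 TPM in WT, 15000 to 19800 in WTL, 46700 to 49200 in KO and 19100 to 26800 in KOL, and in KO against WT 4 were higher and 6 lower. Lyz2, at a mean of 25400 TPM in WT and 46000 in KO, made up most of those sums. Of 10 neutrophil markers, 8 were tested and 6 were lower in KO than in WT, with sums of 378 to 401 TPM in WT, 350 to 443 in WTL, 195 to 227 in KO and 288 to 337 in KOL. Progenitor markers summed to at most 9.72 TPM, lymphocyte markers to at most 4.70, mast cell and basophil markers to at most 4.59, plasmacytoid dendritic cell markers to at most 3.56 and erythroid markers to at most 0.960 in any library. The part of these cell type differences in the values of the 9 factors was not tested.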

How the data were processed

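RNA was sequenced from 12 BMDC cultures in 4 groups of 3 replicates, assigned by their labels. The authors used Trim Galore for trimming, STAR for alignment to mm10 (2.5.1 in the submitters' processing notes) and RSEM for quantification. They deposited an expected count (RSEM's estimate of the reads of a gene, often not whole), a TPM and a weighted transcript length for each of 55335 genes. The strand setting is not given in the sources used here, and the paper's methods name poly(A) selection where the labels name depletion of ribosomal RNA. Libraries held 12769773 to 16586334 expected counts.

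Expected counts were rounded, normalized by TMM and filtered by group with filterByExpr, which left 14008 genes, in edgeR 4.0.16 (R 4.3.3). The quasi-likelihood test was fitted once to all 12 libraries with group as the only factor, with Benjamini-Hochberg adjustment and calls at an adjusted p under 0.05. Fits were tested on simulated counts. Alternatives were DESeq2 1.42.0, limma 3.58.1 on log2(TPM + 1) or log2(TPM + 0.1) for genes with at least 1 TPM in 3 libraries, other filters and size factors, the 6 libraries of a comparison, a replicate block, the study's fold cutoffs and leaving out each library. A correction for GC content in 20 bins, TPM scaled to a common median and leaving out 2 libraries together were added after the data had been seen. Positions are from GENCODE M21, which matched 9 of 9 identifiers, and promoters from RefSeq (GRCm38.p6), with no window for Spi1.

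The members and gene lists were chosen with earlier results of these data known. Beyond the 9 factors and Ctcf, at most 4 called genes per list and comparison were named, those with the largest change and at least 50 normalized counts on average, and for each factor the 2 genes most alike over the 12 libraries. The values of 1 macrophage regulator are not reported here.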

Additional observations from a re-analysis of the deposited data

Results flagged for a closer look

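The LPS response differed between KO and WT BMDCs, by the test of the difference itself (edgeR interaction term), for 5 of the 9 factors. Over all genes, 8.70% were called higher and 8.75% lower in this test. On the log2 scale the response in KO minus that in WT was 0.53 for Zbtb46 (adjusted p = 0.0127), 0.70 for Runx3 (adjusted p = 0.0295), -0.53 for Spi1 (adjusted p = 0.00192), -0.64 for Cebpa (adjusted p = 0.0284) and -0.56 for Runx1 (adjusted p = 0.00155). Zbtb46 rose in both genotypes and more in KO, and Cebpa and Runx1 fell in both and more in KO. In edgeR, Spi1 and Runx3 were called changed after LPS in KO and not in WT, whereas on unscaled TPM limma called Runx3 lower in WT (-0.48, adjusted p = 0.00243) and not in KO (0.19, adjusted p = 0.153). When each library was left out in turn, the values ranged from 0.46 to 0.63 for Zbtb46, 0.54 to 0.82 for Runx3, -0.59 to -0.42 for Spi1, -0.80 to -0.50 for Cebpa and -0.61 to -0.48 for Runx1, and the calls for Zbtb46, Spi1 and Runx1 remained in every such fit. The calls for Spi1, Cebpa and Runx1 were lost on log2(TPM + 1) (limma, adjusted p = 0.112, 0.376 and 0.210). Those for Runx3 and Cebpa were lost with the replicate block (edgeR, adjusted p = 0.0521 and 0.0547).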

How the results depend on the processing

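The results were 45 log2 changes, those of 9 factors in 4 comparisons of groups and the difference between the LPS responses. Their direction and call were unchanged for 43 under DESeq2, 44 with its size factors in edgeR, 44 with at least 10 counts in every library, 42 with no filter, 43 with the GC correction and 31 of 36 in fits of the 6 libraries compared. On log2(TPM + 1) or log2(TPM + 0.1), tested with limma, 34 were unchanged, and 36 were unchanged once TPM was scaled to a common median. The lowest group mean of any factor was 89.9 normalized counts, for Cebpa in KOL.

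The replicate numbers did not pair the libraries. The correlation of deviations from the group means ran from -0.66 to 0.35 over 18 pairs of libraries with the same number, with a mean of -0.04 against 0.03 for different numbers. Over the 36 pairs with different numbers it ran from -0.61 to 0.67. The highest were between stimulated libraries, WTL replicate 1 with KOL replicate 2 at 0.67 and WTL replicate 3 with KOL replicate 1 at 0.62. A block on the replicate number does not take up such shared deviations, whose cause was not tested. With the number as a replicate block 42 of 45 were unchanged, and 1 factor in place of 2 was called higher in the difference between responses. The calls lost were Klf4 in KOL against WTL (adjusted p = 0.0513) and Runx3 and Cebpa in the difference between responses (0.0521 and 0.0547), for causes not tested.

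In WTL against WT, the count of factors called higher was 4 without WTL replicate 1 and KOL replicate 2 together and 1 at the study's fold cutoff of 2, and the count called lower was 6 under limma with either pseudocount. In KO against WT, the count called higher was 2 under DESeq2, with at least 10 counts, in the 6 libraries and without those libraries together, and the count called lower was 4 in the 6 libraries. At the cutoff of 1.5 in KOL against WTL, 1 was higher and 2 lower. In KOL against KO, 2 were called higher under limma with either pseudocount and 1 at the cutoff of 2. In the difference between responses, 0 were called lower under limma on all 3 TPM scales, against 3 in edgeR and 3 in DESeq2. At an unadjusted p under 0.05, limma had 1 lower (Spi1) on the unscaled TPM scales and 2 (Spi1 and Runx1) on scaled TPM. When each library was left out in turn, the number called higher ran from 2 to 4 in WTL against WT, from 1 to 2 in KO against WT and from 1 to 2 in the difference between responses.

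Reversed directions concerned values that edgeR did not call. Runx3 in WTL against WT was 0.08 without WTL replicate 1 and KOL replicate 2 together and ran from -0.21 to 0.08 with each library left out. Spi1 in WTL against WT was -0.51 under limma with either pseudocount, where it was called, and -0.03 after scaling. Runx1 in KO against WT was 0.07 on scaled TPM. Cebpb in KOL against WTL was 0.02 without those 2 libraries together and ran from -0.40 to 0.22. For the difference between responses, Batf3 was -0.05 on scaled TPM, -0.02 without those 2 libraries together and -0.12 to 0.31 with each left out. Id2 was 0.03 under limma with either pseudocount and -0.10 to 0.05 with each library left out, Klf4 ran from -0.01 to 0.24 and Cebpb from -0.11 to 0.51. The causes of these changes were not tested.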

Other observations

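For each factor, the 2 tested genes whose centred log2 normalized counts differed least from its own over the 12 libraries were found by the root mean square difference. For Zbtb46 they were Rftn1 (0.09) and Smox (0.10), for Id2 Surf4 (0.06) and Atf3 (0.07), for Runx1 Abcg1 (0.06) and Acox3 (0.10), and for Spi1 Zc3h4 (0.06) and Ddx23 (0.07). Runx3 was nearest to Dynll2 (0.10) and 1700037H04Rik (0.11), Klf4 to Msh6 (0.12) and Slc37a4 (0.12), Batf3 to Emc8 (0.13) and Sap25 (0.13), and Cebpa to Hr (0.14) and Dhcr7 (0.22). Cebpb was nearest to Gm9294 (0.21) and Cyren (0.21), farther than the nearest gene of any other factor. The root mean square size of a factor's own deviations was 1.19 for Cebpa, 0.74 for Zbtb46, 0.67 for Klf4 and 0.16 for Spi1.

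The nearest tested neighbour on each side of a factor on the chromosome was looked up after the values had been seen. Over the 4 comparisons of groups, factors that were called had 46 neighbour values, of which 17 were called in the direction of the factor, 11 in the other direction and 18 were not called. The numbers in the same and the other direction were 3 and 3 in WTL against WT and 0 and 2 in KO against WT. They were 3 and 5 in KOL against WTL and 11 and 1 in KOL against KO, where 33.6% of all genes were called higher and 33.9% lower. In KOL against WTL, Zgpat and Tpd52l2, on either side of Zbtb46, were higher by 1.06 (edgeR adjusted p = 5.92e-07) and 0.80 (adjusted p = 4.46e-07), as Zbtb46 was. After LPS in WT, Cebpg, beside Cebpa, fell by -0.51 (adjusted p = 2.51e-05) and Kidins220, beside Id2, rose by 0.42 (adjusted p = 0.00355). Slc39a13, 12 kb from Spi1, averaged 412 normalized counts in WT and 2061 in KO (log2 2.32, edgeR adjusted p = 1.20e-10), while Spi1 differed by 0.17 and was not called. Ptpn1, 241.6 kb from Cebpb, averaged 4078 in WT and 12511 in KO (1.62, adjusted p = 2.01e-10), and Clic6, 60.2 kb from Runx1, averaged 2.01 in WT and 80.4 in KO (5.22, adjusted p = 2.53e-08). The WT mean of Clic6 lies below the floor of 3 counts, or 2.52 to 2.76 normalized counts in the WT libraries. The size of its log2 change is therefore uncertain. The minimum of 50 normalized counts was not applied to neighbours. Nsl1, 11.4 kb from Batf3, was lower in KOL than in WTL by -1.06 (adjusted p = 4.94e-06), where Batf3 was higher by 0.74. Clic4, 36 kb from Runx3, rose after LPS from 8198 to 42366 in WT and from 7355 to 41623 in KO, while Runx3 was called higher in KO and was not called in WT.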
